A study of Mus musculus with 47 samples.

Results

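The acute phase genes described here are the 10 genes Saa1, Saa2, Saa3, Hp, Hpx, Orm1, Orm2, Apcs, Crp and Itih4, taken by gene symbol from the 20456 genes of a count table of mouse embryonic tissues. The choice follows their known role and was made with earlier results of these data known. RNA of whole liver, lung and brain of C57BL/6 embryos at E18.5 was sequenced in 47 libraries of 12 groups. The S226A embryos were homozygous for a germline knock-in of Daxx (S226A/S226A) that replaces the serine through which Daxx binds the histone variant H3.3. The Y130A embryos were homozygous for a knock-in (Y130A/Y130A) that replaces the tyrosine through which it binds Atrx. Both alleles also carry silent changes that kept Cas9 from cutting again, were made in C57BL/6N zygotes and were crossed to C57BL/6J, and every cell of an embryo carries them. Each mutant was compared with wild-type embryos of the same 4 litters, and each group has 4 libraries apart from wild-type lung of the Y130A litters, which has 3. A library is 1 piece of tissue of 1 embryo.

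The acute phase response is the change in the proteins that the liver secretes during infection or injury. Cytokines, above all interleukin-6 and interleukin-1, reach hepatocytes and act through Stat3, C/EBP factors and NF-kB to raise the transcription of the positive acute phase genes. In adult mice the serum amyloid A genes Saa1 and Saa2 respond most strongly. Saa3, their neighbour, is also made outside hepatocytes, by macrophages, fat and epithelia. Hp encodes haptoglobin, which binds free hemoglobin, and Hpx encodes hemopexin, which binds free heme. Orm1 and Orm2 encode orosomucoids, plasma glycoproteins that bind drugs and lipids. Apcs and Crp encode the pentraxins serum amyloid P, the major acute phase pentraxin of the mouse, and C-reactive protein, which responds little in mice. Itih4 encodes a heavy chain of the inter-alpha-trypsin inhibitor family.

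The 3 serum amyloid A genes lie in 1 cluster on chromosome 7 (GRCm38, positions of GENCODE M21), Saa3 at chr7:46711998-46715700 and Saa1 at chr7:46740497-46742980 on the minus strand and Saa2 at chr7:46751790-46754313 on the plus strand. Orm1 (chr4:63344560-63348163) and Orm2 (chr4:63362449-63365878) are also neighbours, and Apcs (chr1:172893961-172895041) and Crp (chr1:172698055-172833031) lie on chromosome 1. Hp is at chr8:109575128-109579172, Hpx at chr7:105591613-105600137 and Itih4 at chr14:30886476-30902353, and all 10 are protein-coding. The serum amyloid A genes are shown first because Saa3 was read in every liver and its neighbours were almost without reads. The 250 bases before the start site, from RefSeq (GRCm38.p6), are given below in the direction of transcription for these 3 genes and for Hpx, with the match to a C/EBP-type motif in capitals. They cover chr7:46742981-46743230 for Saa1, chr7:46751583-46751832 for Saa2, chr7:46715677-46715926 for Saa3 and chr7:105600117-105600366 for Hpx.
Saa1: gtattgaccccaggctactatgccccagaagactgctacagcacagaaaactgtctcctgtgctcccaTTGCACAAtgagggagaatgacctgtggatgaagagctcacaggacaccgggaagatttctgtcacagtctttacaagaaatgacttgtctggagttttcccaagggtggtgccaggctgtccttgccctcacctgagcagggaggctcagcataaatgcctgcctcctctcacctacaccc
Saa2: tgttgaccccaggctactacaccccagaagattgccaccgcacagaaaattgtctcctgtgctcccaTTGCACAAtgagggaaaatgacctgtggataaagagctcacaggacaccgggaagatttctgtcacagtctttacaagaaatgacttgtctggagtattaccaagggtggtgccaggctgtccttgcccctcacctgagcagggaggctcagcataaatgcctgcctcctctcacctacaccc
Saa3: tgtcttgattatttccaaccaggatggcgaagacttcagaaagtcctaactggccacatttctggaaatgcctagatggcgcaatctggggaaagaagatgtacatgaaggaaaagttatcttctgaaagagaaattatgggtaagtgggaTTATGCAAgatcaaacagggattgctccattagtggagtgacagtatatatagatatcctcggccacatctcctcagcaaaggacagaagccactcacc
Hpx: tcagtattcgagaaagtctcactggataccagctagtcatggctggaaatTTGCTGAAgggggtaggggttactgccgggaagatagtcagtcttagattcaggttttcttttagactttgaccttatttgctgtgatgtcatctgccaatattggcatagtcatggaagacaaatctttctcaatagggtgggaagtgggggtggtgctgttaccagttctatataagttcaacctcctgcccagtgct

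The sequences before Saa1 and Saa2 were identical at 238 of 251 aligned positions (94.8%), and the sequence before Saa3 matched that before Saa1 at 133 of 276 (48.2%). The C/EBP-type motif was searched as TTGCNNAA on both strands. Its match began 182 bases before the start of Saa1, 183 before Saa2, 99 before Saa3 (on the other strand) and 200 before Hpx. RefSeq promoters were found for 8 of the 10 members. Of these, 5 held a match (these 4 and Orm2) and Apcs, Crp and Itih4 held none, and of 32851 RefSeq promoters of the same length 9.56% held a match. The STAT motif TTCNNNGAA (7.02% of all promoters) had no match in these 4 sequences, and the 2 matches among the members lay before Apcs and Itih4. The NF-kB consensus, searched on both strands (7.25% of all promoters), had no match before any of the 8 members. A match in this window is a description of the letters.

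Depth differed between the sets of litters, with 15722147 to 26190403 reads per library in the S226A litters and 36351738 to 54885020 in the Y130A litters. All levels below are therefore in CPM, read counts relative to the library total after TMM scaling. The 12 hepatocyte markers summed to 50950 to 65770 CPM in the 16 livers, 5.86 to 399 CPM in the lungs and 5.63 to 61.1 CPM in the brains, and the lung and neuron markers were likewise highest in their own tissue. The livers hold blood-forming tissue as well, with erythroid markers at 23070 to 38250 CPM. A pair of livers stood apart: wild-type replicate 2 of the S226A litters (litter 2881) and Y130A replicate 1 (litter 2848) held 1163 and 765 CPM of squamous epithelium markers, against a median of 3.03 CPM over the livers. Values without them are given beside Saa3 and Hp, the spread and the shared deviations.

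In wild-type liver the members fell into 3 ranges of level (CPM per kb of exon, mean ± SD, n = 8). Hp stood at 1005 ± 202, rank 36 of 20424 genes, and Hpx at 622 ± 43.6 was at rank 65. Apcs at 556 ± 166 and Itih4 at 555 ± 51.7 were at ranks 72 and 74. These 3 do not differ from each other beyond the spread of Apcs. Crp followed at 73.4 ± 13.2, Saa3 at 10.3 ± 4.28 and Orm1 at 3.33 ± 1.39. The exon length joins all annotated transcripts of a gene. It was 2606 bases for Saa3 (3 transcripts) and 3444 for Crp (2), and 775 for Orm1 and 971 for Apcs (1 each). Levels per kb and ranks of genes with several transcripts may therefore be understated. The genes of abundant plasma proteins were thus among the highest genes of these livers, and Orm1 was at rank 9144.

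Saa1, Saa2 and Orm2 were at the other end. Saa1 had no read in 12 of the 16 livers and at most 9 in any, Saa2 had none in 9 and at most 10, and Orm2 had none in all 16. A count of 0 allows up to 0.216 CPM in the shallowest liver (3 reads), for counting error only. The 2 genes that respond most strongly in adults were therefore at the limit of detection in the counts of these livers. None of the 3 passed the filter on low counts (minimum count 10), so that 7 of the 10 members could be tested. Saa1 shares 31.1% of its 50-base exon windows (784 of 2519) with Saa2, and Orm1 shares 20.4% with Orm2. Reads from these stretches cannot be placed on either copy with certainty and may be missing from the counts. The windows were pooled over all annotated transcripts. For Saa1 these cover 2478 bases of exon, nearly the whole gene, so that the share within 1 transcript may be larger. Saa3 shared 0.346% of its windows with Saa1 and none with Saa2.

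**Figure D1:**
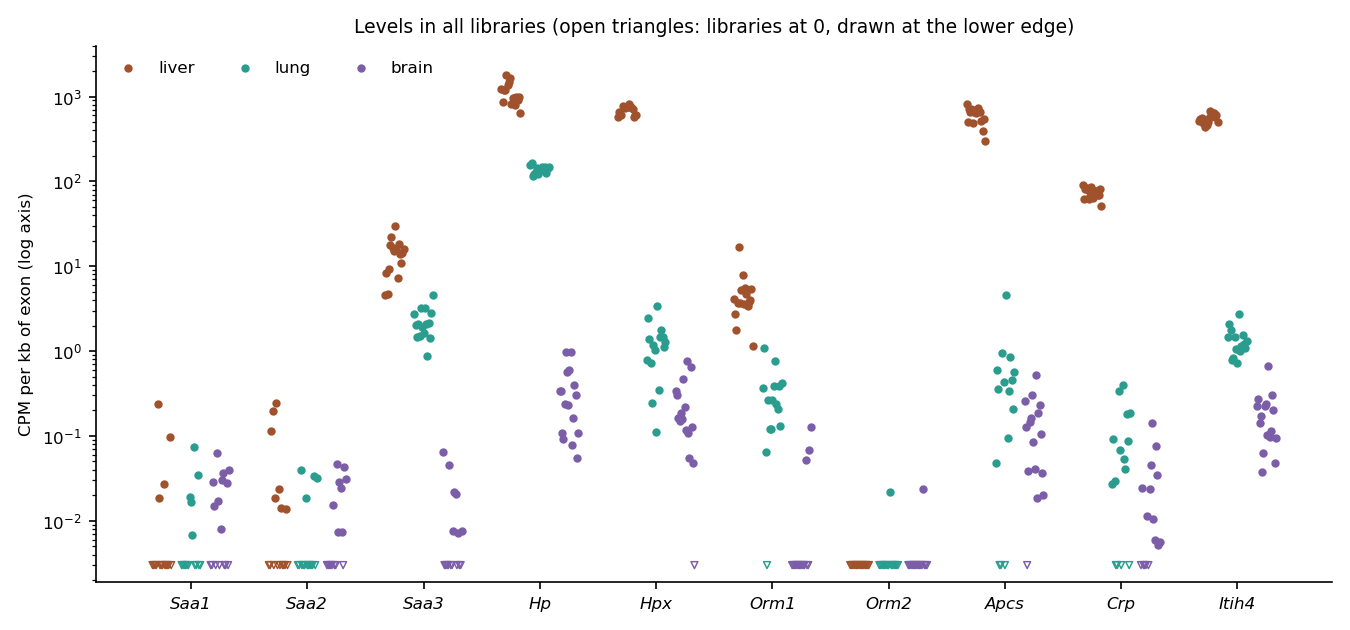
Levels of the 10 members in the 47 libraries, in CPM per kb of exon on a log axis, with 1 point per library and open triangles for libraries at 0. Hp, Hpx, Apcs and Itih4 are the highest in liver, Hp keeps a narrow range in lung, and Saa1, Saa2 and Orm2 are near 0 in every tissue.

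S226A liver was compared with wild-type littermate liver to see how the acute phase genes stand where Daxx does not bind H3.3. Saa3 rose 2.64-fold, and Hp and Hpx were higher in every S226A liver than in any wild-type littermate, by 1.40-fold and 1.23-fold. Orm1 was 2.71-fold higher on average with a wide spread. Apcs, Crp and Itih4 stood at 0.950, 0.924 and 0.915 of the wild-type level. By edgeR's quasi-likelihood test over all 47 libraries, 1 of the 7 members tested passed an adjusted p of 0.05, against 11.7% of all 16892 genes tested. The libraries of the 2 groups did not overlap for 3 of the 7 members, against 11.9% of all genes.

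Saa3 stood at 46.6, 58.3, 42.7 and 39.3 CPM in the S226A livers (replicates 1 to 4) and at 12.1, 21.95, 12.4 and 24.5 CPM in their wild-type littermates. The groups did not overlap, and the S226A liver was the higher in 4 of 4 litters, by 1.61-fold to 3.85-fold. The log2 fold change was 1.40 (SE 0.34, adjusted p = 0.0043 by edgeR), and Saa3 also met the stringent criteria (adjusted p below 0.01, more than 2-fold, SE below 1) that 2.1% of all genes met. Without the wild-type liver that held squamous transcripts it was 1.52 (adjusted p = 0.00595). In bulk RNA, more cells that make a transcript and more transcript per cell cannot be told apart.

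Hp was read at 2882, 2200, 2363 and 2646 CPM in S226A liver and at 1974, 1399, 1942 and 1916 CPM in wild-type littermates. The lowest S226A liver lay above the highest wild-type liver, and each lay above its own littermate, by 1.22-fold to 1.57-fold. The log2 fold change was 0.48 (SE 0.25, adjusted p = 0.22 by edgeR), and 0.38 (adjusted p = 0.42) without wild-type replicate 2, the lowest wild-type liver, which held squamous transcripts. Hpx stood at 1156, 1138, 1097 and 1144 CPM against 870, 973, 940 and 919 CPM, again without overlap and higher in 4 of 4 litters. Its log2 fold change was 0.29 (SE 0.32, adjusted p = 0.64 by edgeR), an SE far above the spread of these livers, whose SD on the log2 scale was 0.033 in S226A and 0.068 in wild-type. Both genes are nearly off in brain, and all tissues share 1 estimate of the spread in this fit.

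In fits that held liver libraries alone, the same differences had smaller errors. With only the 8 libraries compared, Hp (SE 0.12, adjusted p = 0.020) and Hpx (SE 0.068, adjusted p = 0.0089) passed with Saa3, 3 of 7 members against 8.28% of all genes. With all 16 livers, a fit chosen after seeing the data, the same 3 passed, against 8.61% of genes. With litter as replicate block in edgeR, 4 of 7 members passed, against 10.2% of genes. These were Saa3 (log2 fold change 1.45, SE 0.21, adjusted p = 0.00022), Hp (0.49, SE 0.090, adjusted p = 0.0019), Hpx (0.30, SE 0.066, adjusted p = 0.0077) and Orm1 (1.29, SE 0.39, adjusted p = 0.046). DESeq2 over all libraries called Saa3 alone, with an adjusted p of 0.55 for Hp and 0.88 for Hpx. Calls for Hp, Hpx and Orm1 in S226A liver therefore depend on the fit, while the Hp estimate lay between 0.48 and 0.49 and the Hpx estimate between 0.29 and 0.31 in these edgeR fits. All of these fits kept the wild-type liver with squamous transcripts. Without it Hp was 0.38 in the fit over all tissues, and the fits of livers alone were not rerun without it.

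Orm1 had few reads, 62 to 199 in S226A liver and 19 to 52 in its wild-type littermates. The levels were 13.1, 2.86, 4.02 and 6.04 CPM in S226A and 3.19, 2.10, 1.37 and 2.88 CPM in wild-type. Replicate 1 of S226A (litter 2972) was the highest of all livers, and the lowest S226A liver lay within the wild-type range, although each exceeded its littermate. The log2 fold change was 1.44 (SE 0.64, adjusted p = 0.16 by edgeR) and fell to 0.85 without S226A replicate 1.

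The pentraxins and Itih4 gave no difference beyond the spread. Apcs stood at 687, 470, 646 and 675 CPM in S226A liver and at 784, 492, 698 and 635 CPM in wild-type littermates (log2 fold change -0.07, SE 0.33). Crp ranged from 211 to 293 CPM in S226A and from 212 to 315 CPM in wild-type (log2 fold change -0.11, SE 0.28). Itih4 ranged from 1612 to 1951 CPM and from 1795 to 2049 CPM (log2 fold change -0.13, SE 0.29). For these 3 genes the groups overlapped.

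**Figure D2:**
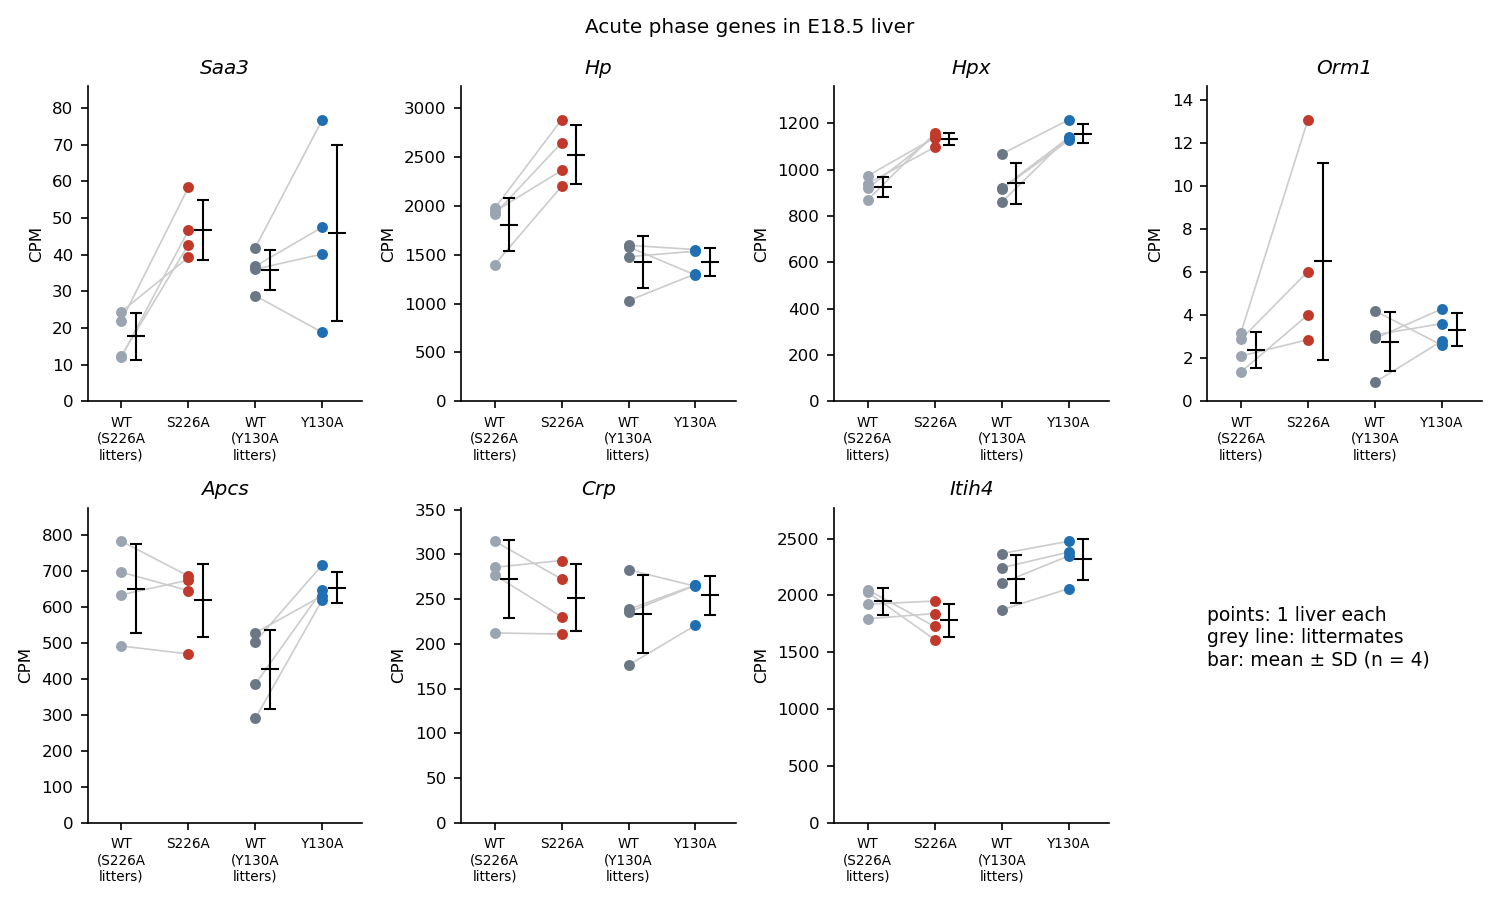
CPM of the 7 tested members in the 16 livers, with 1 point per liver, grey lines between littermates and bars for mean ± SD (n = 4). Saa3, Hp and Hpx are higher in every S226A liver than in its wild-type littermates, and Apcs and Hpx are higher in every Y130A liver than in any of its own. Itih4 is higher in each Y130A liver than in its littermate, with groups that overlap.

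Y130A liver was compared in the same way, to ask about the Daxx allele that does not bind Atrx. None of the 7 members passed, against 0.272% of all genes. At an unadjusted p below 0.05 there was none either, and DESeq2 called none. The groups did not overlap for 2 members, Apcs and Hpx, against 2.35% of all genes.

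Apcs stood at 621, 718, 648 and 632 CPM in Y130A liver (replicates 1 to 4, litters 2848, 2851, 2974 and 3069) and at 291, 504, 386 and 529 CPM in the wild-type littermates of the same litters. It was higher in 4 of 4 litters, by 1.20-fold to 2.14-fold. The log2 fold change was 0.62 (SE 0.33, adjusted p = 0.63 by edgeR). With litter as replicate block it was 0.65 (SE 0.10, adjusted p = 0.020 by edgeR), 1 of 7 members against 0.089% of all genes. The wild-type livers of these litters had a mean of 427 ± 110 CPM and those of the S226A litters 652 ± 123 CPM (SD, n = 4), a log2 difference of -0.61 (adjusted p = 0.23 by edgeR, 0.030 in the fit of 16 livers). The Y130A livers averaged 655 ± 43.7 CPM.

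Hpx in Y130A liver, at 1138, 1215, 1142 and 1126 CPM against 919, 1067, 859 and 916 CPM in the same order of litters, was also higher in 4 of 4 litters. The log2 fold change of 0.30 (SE 0.32, adjusted p = 0.90 by edgeR) was the size seen in S226A liver. With litter as replicate block the SE was 0.066, the unadjusted p 0.00043 and the adjusted p 0.22 by edgeR.

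Saa3 varied most widely in the Y130A livers, at 76.8, 40.2, 18.8 and 47.5 CPM, against 41.9, 36.0, 28.8 and 36.8 CPM in the wild-type livers of the same litters. The highest was the Y130A liver with squamous transcripts (litter 2848), and the lowest lay below all its wild-type littermates. The log2 fold change of 0.35 (SE 0.33) became -0.02 without that liver. Hp averaged 1421 ± 143 CPM in Y130A and 1422 ± 266 CPM in wild-type (SD, n = 4), and Orm1 3.33 ± 0.777 and 2.77 ± 1.39 CPM. Crp and Itih4 differed by 0.12 and 0.11 on the log2 scale (SE 0.28 and 0.29), and the groups overlapped. Itih4 was higher in 4 of 4 litters, by 0.06 to 0.15 on the log2 scale.

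The effects of the 2 alleles were set against each other. No member passed the test of the difference, against 5.9% of all genes, and 1 (Saa3) had an unadjusted p below 0.05. The S226A effect on Saa3 exceeded the Y130A effect by 1.04 on the log2 scale (SE 0.47, adjusted p = 0.22 by edgeR), and by 1.53 without the livers with squamous transcripts (adjusted p = 0.062). With litter as replicate block 3 of 7 members passed, against 4.31% of all genes. These were Saa3 (1.24, SE 0.29, adjusted p = 0.019), Hp (0.48, SE 0.13, adjusted p = 0.043) and Apcs (-0.71, SE 0.15, adjusted p = 0.0096 by edgeR). Hpx differed by 0.005 (SE 0.093) between the effects in this fit, and its adjusted p was 0.99.

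**Figure D3:**
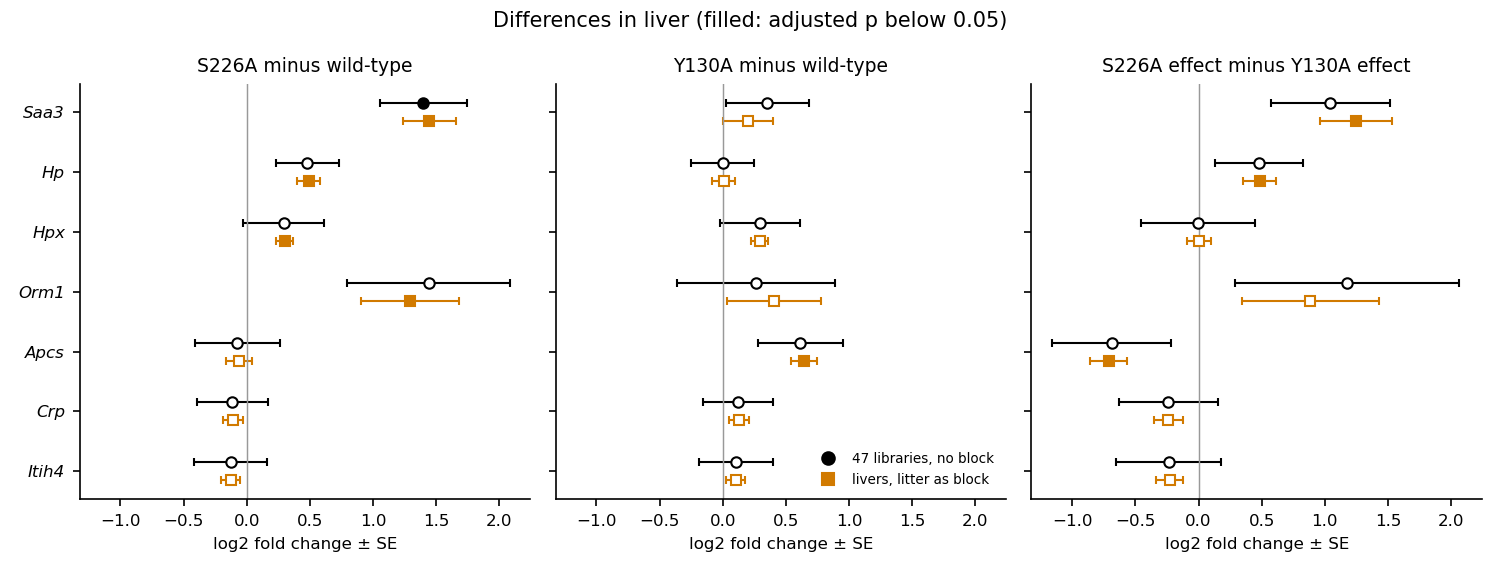
Log2 fold changes ± SE of the 7 tested members in S226A liver, in Y130A liver and between the effects, with circles for the fit of 47 libraries and squares for the fit of livers with litter as replicate block. Filled symbols passed an adjusted p of 0.05: Saa3 in S226A liver in both fits, and Hp, Hpx and Orm1 there, Apcs in Y130A liver and Saa3, Hp and Apcs between the effects with the block alone.

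The wild-type livers of the 2 sets of litters also differed in Saa3, with 28.8 to 41.9 CPM in the Y130A litters and 12.1 to 24.5 CPM in the S226A litters. The groups did not overlap, which held for 1 of 7 members and 10.7% of all genes. The log2 difference was 1.02 (SE 0.34, adjusted p = 0.041 by edgeR), 1 of 7 members against 13.1% of all genes. The adjusted p was 0.056 with RLE size factors, 0.054 with DESeq2 and 0.059 in the fit of 16 livers. The S226A livers, at 39.3 to 58.3 CPM, overlapped the wild-type livers of the Y130A litters. The sets differ in litters and in depth, and these cannot be told apart. The call was also lost in 5 of 8 fits that left out 1 of these livers, with an adjusted p of up to 0.13.

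The spread between livers was measured as the SD of log2(CPM + 1) around the group means. Orm1 (0.56) and Saa3 (0.51) varied the most, more than 97.9% and 96.7% of the 13235 genes with a mean of at least 1 CPM in liver, whose median SD was 0.19. Apcs (0.28), Crp (0.23) and Hp (0.22) were also above that median. Itih4 (0.12) and Hpx (0.080) were below it, and 2.75% of these genes varied less than Hpx. The 2 of the 7 tested members with the lowest levels per kb were thus the most variable, and a gene at the counts of Orm1 carries more counting error than one at the counts of Hpx. Without the 2 livers with squamous transcripts the SD was 0.61 for Orm1, 0.43 for Saa3 and 0.083 for Hpx, and the same 5 members lay above the median of 0.18.

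Deviations from the group means were shared among some members over the 16 livers, which are pairs of littermates from 8 litters. Pearson's r was 0.89 between Hp and Apcs, 0.88 between Hp and Crp and 0.87 between Apcs and Crp, as a description of these libraries. Over the 14 livers without squamous transcripts these were 0.86, 0.84 and 0.85. Marker sums moved with the same deviations. The erythroid sum had an r of -0.53 with Hp, -0.42 with Apcs and -0.62 with Crp over the 16 livers (-0.39, -0.29 and -0.52 over the 14), and the squamous sum -0.54, -0.40 and -0.65 over the 16 (-0.22, -0.081 and -0.45 over the 14). The neutrophil precursor sum had 0.16, 0.25 and -0.038 over the 16 (0.43, 0.46 and 0.21 over the 14). The hepatocyte sum had -0.20, -0.18 and -0.19 (-0.35, -0.31 and -0.29 over the 14), and the macrophage sum -0.098 to 0.19 in both sets. The part of these cells in the shared deviations was not tested. Orm1 went with Hp at 0.74. Saa3 had negative values with Hp (-0.47), Crp (-0.47) and Apcs (-0.36), which were -0.38, -0.29 and -0.30 over the 14 livers, and Hpx had -0.13 to 0.12 with Hp, Apcs and Crp (0.0059 to 0.31 over the 14 livers). In 11 of the 12 combinations of a group with Hp, Apcs or Crp, the lowest liver came from litter 2881 or 2848, a count made after the values were seen. These are the litters of the 2 livers with squamous transcripts, whose part in these levels was not tested. The littermate livers held 1.52 and 6.03 CPM of those markers. The S226A liver of litter 2881 had the lowest Hp, Apcs and Crp of its group, and the wild-type liver of litter 2848 the lowest of its own. Saa3 was highest in litter 2881 or 2848 in 3 of the 4 groups. The genes whose deviations were most like those of Orm1 over the 16 livers were Manba (r = 0.89), Gpr182 (0.88), Eppk1 (0.88), Plppr1 (0.88) and Etfdh (0.88).

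The other genes of the response, in lists chosen with results of these data known, are given by counts in S226A liver beside all genes tested (1037 higher and 935 lower, median log2 fold change -0.01). Of 26 tested positive acute phase genes other than the members, 3 rose and none fell, with a median of 0.03, where 11.7% of all genes were called. The groups did not overlap for 7 of the 26, against 11.9% of all genes, namely the 3 that rose and 4 that were lower in S226A liver, Pzp, Serpina1a, Serpina1b and Serpina1d (log2 fold changes of -0.37 to -0.19, adjusted p of 0.61 to 0.91 by edgeR). The last 3 are near-identical copies, between which reads may be misplaced. Of 9 negative acute phase genes, which the response lowers, none passed (median -0.04). The groups did not overlap for 1 of the 9, Alb (albumin), against 11.9% of all genes. Alb was lower, at 86810 to 108500 CPM in S226A liver and 115500 to 120600 CPM in wild-type (log2 fold change -0.23, SE 0.87, adjusted p = 0.94 by edgeR). It is the most abundant of these genes and the largest part of their sum, which was 123900 to 155000 CPM against 162600 to 168400 CPM. Of 9 tested cytokines none passed (median 0.30), of 12 receptors 1 rose (median 0.10), and of 22 signalling and transcription genes 3 rose (median 0.05). Of 8 clearance genes, 1 rose and 2 fell (median -0.13). In Y130A liver none of these 86 genes passed.

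The 3 positive acute phase genes were Lcn2, Cp and Lbp. Lcn2, which encodes the iron-sequestering lipocalin that hepatocytes and neutrophils make, rose from 204 ± 18.9 to 573 ± 20.1 CPM (SD, n = 4, log2 fold change 1.49, adjusted p = 1.38e-11 by edgeR). Cp, ceruloplasmin, the copper carrier of plasma, rose by 0.56 on the log2 scale (adjusted p = 0.00056) and Lbp, which carries bacterial lipopolysaccharide to its receptor, by 0.43 (adjusted p = 0.014 by edgeR). The fibrinogen chain Fga (-0.18) and the complement gene C3 (0.09) did not pass. Their SEs of 0.79 and 0.34 leave room for a difference of the size of Cp. Serpina3n, a protease inhibitor that the response raises in mice, gave -0.21 (SE 0.24).

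Il1r2, the decoy receptor of interleukin-1 that neutrophils also carry, rose by 1.43 (adjusted p = 0.0039 by edgeR). Il6 had no read in the wild-type livers of the S226A litters and at most 4 in an S226A liver. Tnf stood at 5.11 to 6.01 CPM in S226A liver and at 0 to 3.31 CPM in wild-type (log2 fold change 1.93, SE 0.69, adjusted p = 0.062). Of the signalling genes, the NF-kB inhibitor Nfkbia (0.61, adjusted p = 0.0012), the NF-kB subunit Nfkb1 (0.39, adjusted p = 2.84e-06) and the kinase Irak1 (0.21, adjusted p = 0.030) rose. Stat3 (0.06, SE 0.072) and its feedback inhibitor Socs3 (-0.10, SE 0.18) did not pass.

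Genes for the clearance of these proteins were called in both directions. Cd163, the macrophage receptor that takes up haptoglobin with its hemoglobin, fell by 5.33 on the log2 scale, from 11.6 ± 1.31 to 0.294 ± 0.257 CPM (SD, n = 4, adjusted p = 3.61e-13 by edgeR). Hmox1, heme oxygenase, which breaks heme down, fell by 0.61 (adjusted p = 6.06e-05). Lrp1, a receptor of hemopexin with heme, gave -0.13 (SE 0.14). Fpr2, a receptor for serum amyloid A on myeloid cells, rose by 1.45 (adjusted p = 2.58e-05).

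Cell type markers differed between the same groups. All 15 neutrophil precursor markers were higher in S226A liver and apart from wild-type, summing to 9398 to 10170 CPM against 3259 to 3874 CPM, and 10 of 11 macrophage markers (all but Marco) were lower, summing to 290 to 415 CPM against 1072 to 1254 CPM. The 12 hepatocyte markers, none of which passed, summed to 52130 to 58340 CPM in S226A liver and 51310 to 59560 CPM in wild-type. Their median log2 fold change was -0.25, against -0.01 for all genes, and Apob was the 1 marker lower without overlap. The 12 erythroid markers, none of which passed either, had a median of -0.18, with 3 lower without overlap. Of all genes tested 11.7% were called in S226A liver, and the groups did not overlap for 11.9%. In Y130A liver neutrophil precursor markers summed to 4611 to 5216 CPM, against 3975 to 4901 CPM in wild-type littermates. Macrophage markers summed to 1181 to 1348 CPM against 1285 to 1488 CPM. None was called, against 0.272% of all genes. Of the 15 neutrophil precursor markers 1 was higher without overlap, where the groups did not overlap for 2.35% of all genes. Around the group means, the deviations of Saa3 had an r of 0.20 with the neutrophil precursor sum and 0.39 with the macrophage sum over the 16 livers, and larger values with the squamous sum (0.58) and the hepatocyte sum (0.46). Without the 2 livers with squamous transcripts these 4 values were -0.0031, 0.49, 0.13 and 0.46. With the neutrophil precursor and macrophage sums Hpx had 0.54 and 0.35 over the 16 livers (0.55 and 0.50 over the 14). Hp had 0.16 and 0.19 (0.43 and 0.093 over the 14). The part of all these cells in the differences of Saa3, Hp, Hpx, Lcn2, Il1r2, Fpr2, Cd163 and Hmox1 was not tested.

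**Figure D4:**
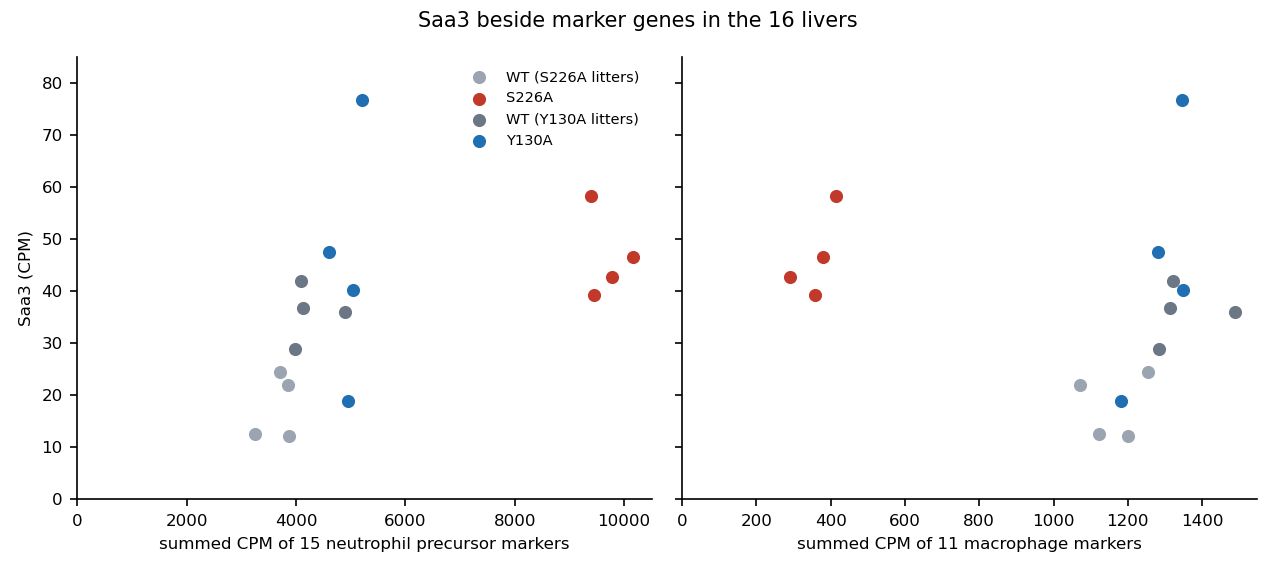
Saa3 in CPM against the summed CPM of neutrophil precursor markers (left) and of macrophage markers (right), with 1 point per liver and 1 colour per group. The S226A livers stand apart on both marker sums, while their Saa3 of 39.3 to 58.3 CPM overlaps that of the Y130A livers, 18.8 to 76.8 CPM (18.8 to 47.5 CPM without the liver with squamous transcripts). Saa3 of the wild-type livers is 12.1 to 24.5 CPM in the S226A litters and 28.8 to 41.9 CPM in the Y130A litters.

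Levels in wild-type liver were set beside those of wild-type lung and brain. Hp, Saa3, Hpx and Itih4 had reads in every wild-type lung and were higher in liver by edgeR, as were 37.8% of all genes. The distance separates them, with Hp 7.15-fold higher (log2 difference 2.84, SE 0.20, adjusted p = 1.45e-16), Saa3 3.92-fold (1.97, SE 0.26, adjusted p = 1.02e-08), Itih4 408-fold (8.67, SE 0.33) and Hpx 473-fold (8.88, SE 0.37). Apcs, Crp and Orm1 had no read in some of these lungs and 79, 57 and 61 reads over all 7, and their levels are given without a test. They stood at 291 to 784, 176 to 315 and 0.879 to 4.21 CPM in wild-type liver and at most 0.584, 0.644 and 0.854 CPM in wild-type lung. In wild-type brain no member was above 1.13 CPM. There the summed reads over 8 libraries were 6 for Saa3 and 8 for Orm1, and no fold is given.

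Hp was read at 187 to 261 CPM in the 15 lungs, a range of 1.40-fold, and Saa3 at 2.29 to 12 CPM. The hepatocyte markers in the same lungs ranged from 5.86 to 399 CPM in sum, so that Hp did not scale with them. The ratio of Hp to that sum had a median of 4.58 in lung and 0.0302 in liver, and the ratio of Saa3 had a median of 0.119 and 0.000648. Hpx, Itih4, Apcs and Crp were low in lung, at most 5.08, 10.1, 4.41 and 1.37 CPM, and each had its highest value in the lung with the most hepatocyte transcripts, Y130A replicate 1 (litter 2848). Across the lungs log2 levels of Hpx, Itih4, Apcs and Crp had an r of 0.89, 0.85, 0.83 and 0.78 with the log2 sum, as against 0.34 for Hp and 0.35 for Saa3, as a description of 15 lungs that share litters. Whether transcripts of liver origin set the levels of these 4 genes in lung was not tested.

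**Figure D5:**
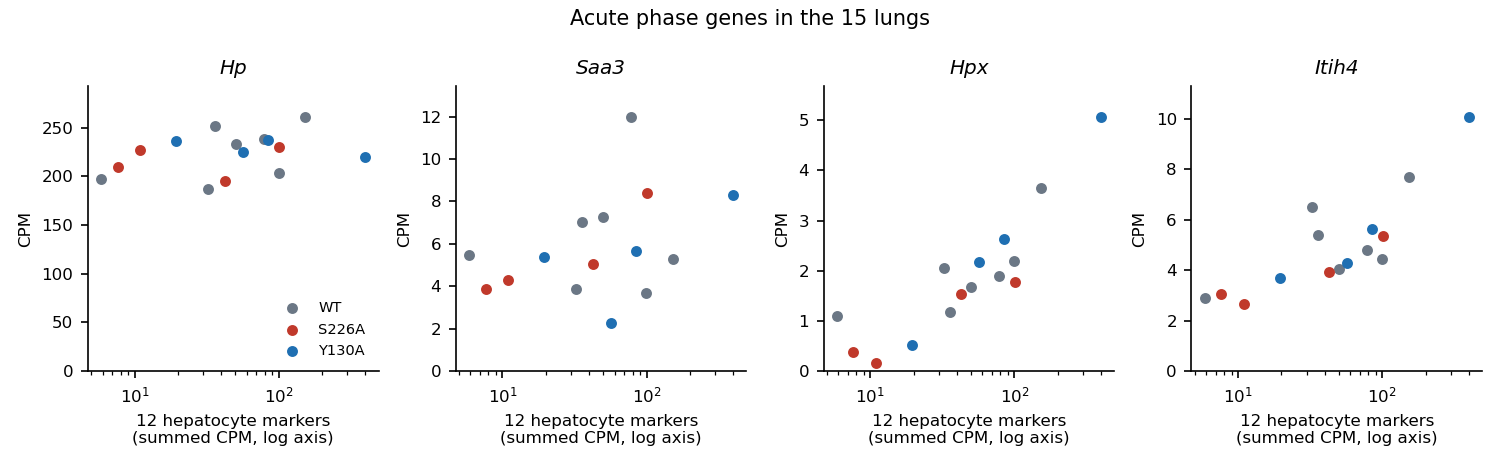
CPM of Hp, Saa3, Hpx and Itih4 in the 15 lungs against the summed CPM of 12 hepatocyte markers on a log axis, coloured by genotype. Hp stays at 187 to 261 CPM over the whole range of the marker sum, while Hpx and Itih4 are highest in the lung with 399 CPM of hepatocyte markers.

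No member was called in lung with either allele. In the S226A litters Orm1, Apcs and Crp had at most 25 reads in a lung, with none in some, too few to say more of them. Of Hp, Saa3, Hpx and Itih4 none passed in S226A lung, against 1.88% of all genes, and none had an unadjusted p below 0.05. In Y130A lung none passed, against 0.0178%, and 1 member (Apcs, log2 fold change 1.95, SE 0.69) had an unadjusted p below 0.05. That value rests on the lung with the most hepatocyte transcripts, where Apcs had 264 reads against at most 36 in any other lung. Hp differed by -0.06 (SE 0.25) in S226A lung and by 0.03 (SE 0.27) in Y130A lung, and Saa3 by -0.01 (SE 0.37) and -0.50 (SE 0.37). In S226A lung Hpx (log2 fold change -1.12, SE 0.63, adjusted p = 0.38 by edgeR) and Itih4 (-0.61, SE 0.38, adjusted p = 0.45) were each lower than the littermate in 4 of 4 litters, with groups that overlapped. Hepatocyte markers summed to 7.63 to 101 CPM in these lungs and 5.86 to 153 CPM in their wild-type littermates, and their part in these values was not tested. DESeq2 called no member in lung.

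In brain the members were low, with at most 1.56 CPM of Hp, 2.49 of Itih4, 1.16 of Hpx, 0.505 of Apcs and 0.168 of Saa3. In the brains of the S226A litters Orm1 had no read, Crp at most 2, Saa3 at most 4 and Apcs at most 7, too few for a comparison of these genes. Of Hp, Hpx and Itih4, with reads in each of these brains, none passed, against 0.243% of all genes, and none had an unadjusted p below 0.05. Hp came close to that limit, with a log2 fold change of 1.23 (SE 0.61, unadjusted p = 0.05015 by edgeR). In the Y130A litters Orm1 and Saa3 had at most 5 and 3 reads in a brain, and Apcs and Crp at most 27 and 26 with as few as 1, and they were not compared either. Of Hp, Hpx and Itih4 none passed, against 0.00592% of all genes, and 1 (Hp, log2 fold change 1.05, SE 0.46) had an unadjusted p below 0.05. The brain with the highest Itih4, Hpx, Apcs and Crp, Y130A replicate 2 (litter 2851), also had the most hepatocyte transcripts, 61.1 CPM. Hp had 4 to 83 reads in the brains and was higher in the mutant in 4 of 4 Y130A litters and in 3 of 4 S226A litters. DESeq2 called no member in brain.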

How the data were processed

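RNA of whole liver, lung and brain of E18.5 embryos was sequenced, and the authors deposited raw read counts per gene, without normalization, in 1 table of 20456 genes and 47 libraries. Reads had been checked with FastQC 0.11.5, trimmed with Trim Galore 0.6.5 and aligned to GRCm38.p6 with STAR 2.6.0b on GENCODE M19. How multimapping reads and strand were treated is not given in the sources used here, so that reads shared by near-identical genes, or from overlapping genes on the other strand, may be misplaced. A further lung of a wild-type Y130A littermate was not analysed here.

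Groups and litters came from the sample titles, and each column was matched to its sample by title. Counts were fitted with edgeR 4.0.16 (R 4.3.3, limma 3.58.1) by quasi-likelihood over all 47 libraries, with 1 coefficient per group, TMM scaling and filterByExpr (at least 10 counts, total of at least 15), so that 16892 genes were tested. Tests were two-sided with Benjamini-Hochberg adjustment over these genes, and a call is an adjusted p below 0.05. The SE was derived from F as the absolute log2 fold change over its root. Exon lengths came from GENCODE M21, to which 20424 genes matched by identifier. Correlations and the spread used log2(CPM + 1), in Python 3.11.15. The scripts were tested on simulated data.

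The named genes were all 10 members, every gene of the other response lists with an adjusted p below 0.05 in either liver comparison, and the 5 genes most like the member with the largest spread. Other genes named beside them (Alb, Pzp, Serpina1a, Serpina1b, Serpina1d, Apob, Fga, C3, Serpina3n, Il6, Tnf, Stat3, Socs3, Lrp1) were chosen after their values were seen. The members and lists were chosen with earlier results of these data known. The alternatives were DESeq2 1.42.0, other scalings, no filter, other sets of libraries, litter as replicate block, the stringent criteria, the livers without squamous transcripts and leaving out each library. The fit of 16 livers and the correlations over 14 livers were added after seeing the data.

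Littermates share a litter by their titles. Deviations from the group means of 18 of 23 pairs of littermates correlated above 0.1 (median r 0.21), against 5 of 69 pairs of other embryos. No library repeats another: chi-square per degree of freedom was at least 4.17 in the 69 pairs of libraries within groups.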

Additional observations from a re-analysis of the deposited data

Results flagged for a closer look

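Within the groups of 4 livers, 28 sets of values were examined for a sample far from the others, of which chance alone flags about 1 in 20. Hp was lowest in the wild-type liver replicate 2 of the S226A litters, at 1399 CPM, with a gap to the next liver of 0.899 of the range of the group. Crp was lowest in Y130A liver replicate 1, at 221 CPM, with a gap of 0.966 of the range. These are the 2 livers that held transcripts of squamous epithelium.

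With litter as replicate block, the S226A effect and the Y130A effect in liver differed by edgeR for Apcs (-0.71 on the log2 scale, adjusted p = 0.0096), Saa3 (1.24, adjusted p = 0.019) and Hp (0.48, adjusted p = 0.043). Without the block none of the 3 passed, with adjusted p of 0.49, 0.22 and 0.52.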

How the results depend on the processing

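In S226A liver, where 1 member was called, 3 were called with only the libraries compared and with only the 16 livers, and 4 with litter as replicate block. The same replicate block called 1 member rather than 0 in Y130A liver and 3 rather than 0 between the effects. In S226A and Y130A lung and brain it called 0 members, as without it, and it was not run between the wild-type sets or between tissues. Between the wild-type livers of the 2 sets, 0 rather than 1 member was called with RLE size factors, library size only, no filter, DESeq2 and the stringent criteria, and the fit of 16 livers called Apcs (-0.67, adjusted p = 0.030) in place of Saa3. With 1 library left out at a time there was 1 to 1 call in S226A liver, 0 to 0 in Y130A liver, in lung, in brain and between the effects and 0 to 1 between the wild-type sets. The call of Saa3 between the wild-type sets was lost without replicate 1 or 3 of the S226A litters or replicate 1, 3 or 4 of the Y130A litters. The spread placed 5 members above the median, and 4 to 5 with a liver left out.

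Small differences changed sign. Saa3 in Y130A liver was -0.016 without the livers with squamous transcripts (-0.016 to 0.61 with 1 liver left out). Hp in Y130A liver, at -0.00082, was 0.0064 with RLE, 0.0042 without the filter, 0.0090 with the replicate block, 0.0064 with DESeq2 and 0.038 without the squamous livers (-0.13 to 0.060 with 1 left out). The difference of the Hpx effects was 0.069 with library size only, 0.0067 in both fits of livers, 0.0049 with the block and 0.014 without the squamous livers (-0.070 to 0.037 with 1 left out). Hpx between the wild-type sets was -0.041 with RLE and with DESeq2, -0.093 with library size only, -0.035 with only the libraries compared and -0.033 with the 16 livers (-0.044 to 0.064 with 1 left out). With 1 liver left out, Orm1 ranged from -0.033 to 0.54 in Y130A liver and from -0.060 to 0.51 between the wild-type sets, and Apcs from -0.19 to 0.037 in S226A liver. The cause of these changes was not tested. Library size only moved the median of all genes to -0.71 between liver and lung and to -0.66 between liver and brain, and 3674 rather than 6379 of 16892 genes were higher in liver than in lung. Calls over all genes in S226A liver were 1266 higher and 676 lower with library size only. They were 997 and 1080 with RLE, and 761 and 369 with only the libraries compared. In S226A lung 317 genes were called, 34 with only the libraries compared and 135 to 1423 with 1 library left out.

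Saa1, Saa2 and Orm2 had too few reads for a test in any tissue, Orm1 and Saa3 in brain, and Orm1 at 19 to 199 reads per liver carries more counting error than Hp or Hpx.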

Other observations

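The 10 members together took 0.317% to 0.564% of the reads of a liver library (median 0.433%) and 0.0229% to 0.0328% of a lung library. Saa4, the constitutive member of the serum amyloid A family, which the response changes little, was read at 38.2 to 61.3 CPM in the wild-type livers of the S226A litters and at 48.2 to 68.3 CPM in S226A liver (log2 fold change 0.22, SE 0.24). Hamp encodes the iron hormone hepcidin. It stood at 2.82 to 28.1 CPM in those wild-type livers and at 18.3 to 67.6 CPM in S226A liver. The log2 fold change of Hamp in S226A liver was 1.71 (SE 0.66, adjusted p = 0.090 by edgeR). In the Y130A litters Hamp stood at 0.2656 to 15.87 CPM in Y130A liver and at 1.11 to 1.67 CPM in wild-type liver. The mean and SD were 5.925 ± 6.965 CPM in Y130A liver and 1.327 ± 0.2409 CPM in wild-type liver, and the groups overlapped. These genes were chosen after their values were seen.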
